A study of Homo sapiens with 9 samples.

Results

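The genes described here are 10 regulators of the G1 phase of the cell cycle: the D cyclins CCND1, CCND2 and CCND3, cyclin E1 (CCNE1), the cyclin-dependent kinases CDK2, CDK4 and CDK6, and the CDK inhibitors CDKN1A, CDKN1B and CDKN2C. They were taken by gene symbol from 58735 genes counted in each library, 1 row per symbol, and all 10 passed the filter on low counts. RNA of MDA-MB-231, a triple-negative breast cancer line, was sequenced in 9 libraries, 3 each of vehicle cells treated with DMSO, of cells that survived erastin (erastin-R) and of cells that survived RSL3 (RSL3-R). Erastin blocks the cystine importer system xc-, and RSL3 blocks the lipid peroxidase GPX4, and both cause ferroptosis, a cell death by lipid peroxidation. The study describes the sequenced cells as survivors of rising amounts of either drug. The survivor groups are called resistant below for short, and their resistance was not tested here. The sources used here do not say for how long they were treated, whether the drug was still present at harvest or whether the 3 libraries of a group came from separate cultures, and p values measure only the spread between these libraries.

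D cyclins pair with CDK4 or CDK6 and begin the phosphorylation of the retinoblastoma protein, which releases E2F factors, and cyclin E with CDK2 completes it, so that genes for DNA synthesis are switched on. Inhibitors of the INK4 family, such as p18 (CDKN2C), bind CDK4 and CDK6, while p21 (CDKN1A) and p27 (CDKN1B) bind complexes of cyclins with CDKs. Many breast cancers have high cyclin D1, and drugs against CDK4 and CDK6 are used to treat the luminal type.

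Between 15405102 and 17273464 reads were assigned to genes per library. The lowest count of any member in any library was 57 (CCNE1). Within a group, the root mean square difference of log2 CPM (counts scaled to a common library size by TMM) over 16188 genes was between 0.331 and 0.354 for pairs of vehicle or RSL3-R libraries and 0.349 for erastin-R replicates 2 and 3. It was 0.457 and 0.450 for the pairs with erastin-R replicate 1, which therefore stood apart. Some of the results that shift without this library, but not all, are also given without it. Of the markers of this mesenchymal-like line, VIM was between 1347 and 1475 CPM in the 3 group means and ZEB1 between 144 and 147 CPM, while SPARC did not exceed 4.21 CPM. FN1 fell from 2180 CPM in vehicle to 1034 in erastin-R (log2 fold change -1.08, adjusted p = 7.1e-09) and 1843 in RSL3-R cells (-0.24, adjusted p = 0.0032), and CD44 from 314 to 282 (-0.15, adjusted p = 0.034) and 234 CPM (-0.43, adjusted p = 3.4e-05). PGR, KRT5 and KRT14 had at most 3 counts in every library. The summed level of 6 markers of leukocytes, endothelium and fibroblasts was 17.95 to 19.39 CPM in vehicle, 8.21 to 9.73 in erastin-R and 24.08 to 28.03 in RSL3-R libraries. Among them, PECAM1 was at 9.99, 1.79 and 12.8 CPM and PDGFRB at 6.99, 6.38 and 11.3 CPM in these groups. Of 7 epithelial or luminal markers, KRT8 fell from 305 CPM in vehicle to 152 and 176 CPM, ERBB3 rose from 5.16 to 7.98 and 7.58 CPM (adjusted p = 0.0095 and 0.022), and CDH1 was at 1.14 CPM in vehicle and 0.751 in erastin-R cells and rose to 3.44 CPM in RSL3-R cells (adjusted p = 0.0013). The part of these shifts in the results below was not tested.

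The promoter sequences of 7 of the 10 genes were matched by symbol to RefSeq (GRCh38), as 12 windows of 300 bases around a transcript start. The core of the E2F site (TCCCGC or TGGCGC, on either strand) was found in 8 of these 12 windows and in 36.03% of all 35116 RefSeq windows. The 250 bases before the start are shown for CCNE1 and CDKN2C, which fell in both resistant groups, and for CDKN1A and CDKN1B, which did not, all on the plus strand, with E2F core matches in capitals.
CCNE1, chr19:29811741-29811990: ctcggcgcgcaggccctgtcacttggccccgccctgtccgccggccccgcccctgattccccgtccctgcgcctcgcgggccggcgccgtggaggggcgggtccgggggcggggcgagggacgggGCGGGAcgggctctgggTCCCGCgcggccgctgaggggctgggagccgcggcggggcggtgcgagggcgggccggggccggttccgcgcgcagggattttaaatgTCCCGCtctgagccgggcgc
CDKN2C, chr1:50968456-50968705: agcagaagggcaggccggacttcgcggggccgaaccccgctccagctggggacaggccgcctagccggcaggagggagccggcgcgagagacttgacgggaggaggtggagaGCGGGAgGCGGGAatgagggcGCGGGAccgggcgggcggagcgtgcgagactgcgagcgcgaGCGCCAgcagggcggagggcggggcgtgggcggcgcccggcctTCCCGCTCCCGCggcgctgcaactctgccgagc
CDKN1A, chr6:36678464-36678713: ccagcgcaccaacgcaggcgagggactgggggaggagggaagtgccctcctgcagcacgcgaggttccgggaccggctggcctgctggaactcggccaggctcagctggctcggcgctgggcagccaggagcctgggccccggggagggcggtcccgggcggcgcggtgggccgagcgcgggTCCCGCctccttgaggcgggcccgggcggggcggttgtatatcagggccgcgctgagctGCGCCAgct
CDKN1B, chr12:12717118-12717367: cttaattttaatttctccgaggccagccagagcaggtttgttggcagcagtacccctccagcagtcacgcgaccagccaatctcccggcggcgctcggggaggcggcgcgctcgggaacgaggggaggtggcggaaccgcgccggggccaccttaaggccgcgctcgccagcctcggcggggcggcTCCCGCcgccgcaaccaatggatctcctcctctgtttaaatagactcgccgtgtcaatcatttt
The window of CDKN2C held 6 matches, that of CCNE1 held 3, that of CDKN1A held 2 and that of CDKN1B held 1. The genes shown were picked by their changes in these data, and a link between matches and changes was not tested. Of the windows not shown, 2 of the 3 of CCND3 and both of CDK6 held 1 match each, so that a match was found for genes that fell and for genes that rose. The other windows of CDKN2C, at starts before and after this one, held no E2F core. The window of CDK4 held none either, and had 3 copies of the E-box CACGTG, which 7.26% of all windows contain. Among the members, the E-box was found in 4 of the 12 windows, from CDK4, CDK6 and CDKN2C.

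In erastin-R cells, 9 of the 10 genes differed from vehicle (edgeR quasi-likelihood test, adjusted p under 0.05), 3 higher and 6 lower, where 54.0% of all genes tested did so (27.1% higher and 26.8% lower). In RSL3-R cells 7 of 10 differed from vehicle, 1 higher and 6 lower (48.7% of all genes, 23.8% higher and 24.9% lower), and between RSL3-R and erastin-R cells 8 of 10 differed, 3 higher and 5 lower in RSL3-R (49.2% of all genes, 22.3% higher and 26.9% lower). The libraries of the groups compared did not overlap for 8, 9 and 8 of the 10 genes in these comparisons, and for 57.9%, 61.9% and 55.2% of all genes. With the study's further condition of at least a 2-fold change, 3 genes remained for erastin-R (CCND1, CCND2 and CDKN2C, with 13.4% of all genes past it), 3 for RSL3-R (CCND2, CCNE1 and CDKN2C, with 10.1%) and 0 between the resistant groups (10.3%). Without erastin-R replicate 1, CDKN2C (log2 fold change -0.97) fell short of this condition for erastin-R and CCNE1 (-1.01) met it. The median log2 fold change of the 10 genes was -0.24 for erastin-R and -0.28 for RSL3-R, and that of all genes tested was -0.0042 and 0.0052. Both comparisons share the vehicle libraries, so their values are set side by side below and not correlated.

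**Figure D1:**
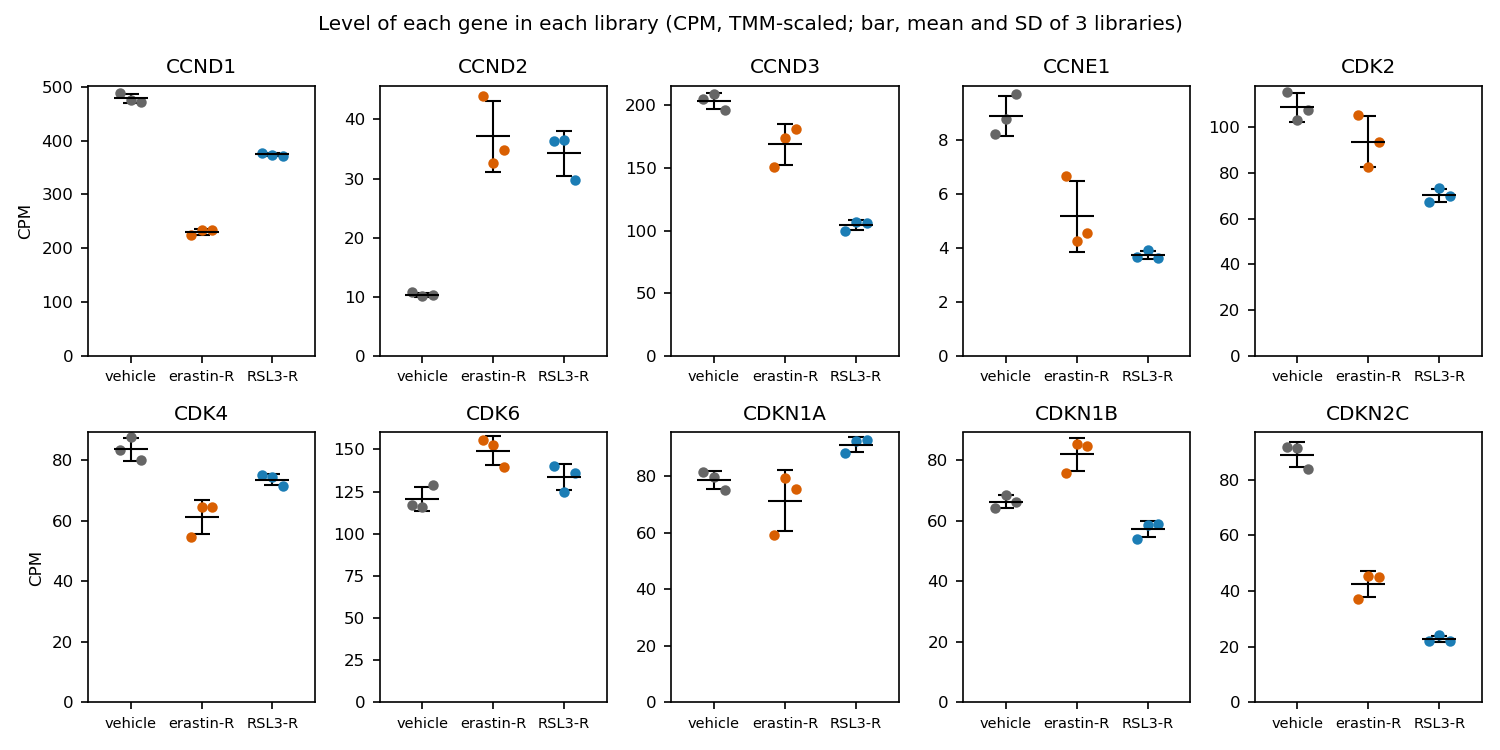
Level of each of the 10 genes in each library, as CPM on a linear axis from 0, with points for the 3 libraries of vehicle, erastin-R and RSL3-R cells and a bar for their mean and SD. CCND1, CCND3, CCNE1, CDK4 and CDKN2C lie lower in both resistant groups than in vehicle cells, though CDK4 did not pass the threshold in RSL3-R cells. CCND2 lies above 29 CPM in all 6 resistant libraries against at most 10.7 CPM in vehicle.

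CCND1 (ENSG00000110092, chr11:69641087-69654474, GRCh38, plus strand), which encodes cyclin D1, was at 488, 476 and 472 CPM in the vehicle libraries. It was at 224, 233 and 234 CPM in erastin-R and at 377, 374 and 372 CPM in RSL3-R cells. The 3 groups did not overlap, with vehicle highest and erastin-R lowest. CCND1 was 2.08-fold lower in erastin-R cells (log2 fold change -1.05, SE 0.051, adjusted p = 2.7e-09) and 1.28-fold lower in RSL3-R cells (-0.36, SE 0.050, adjusted p = 5.2e-05). RSL3-R cells had 1.62-fold more of it than erastin-R cells (adjusted p = 1.7e-07). In GENCODE, 10.3% of its exon bases lie under LTO1 on the opposite strand, which had between 485 and 610 counts, against at least 3664 for CCND1 in any library.

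CCND2 (ENSG00000118971, chr12:4273772-4305350, plus strand) encodes cyclin D2 and moved the other way. It was at 10.7, 10.1 and 10.3 CPM in vehicle cells. In erastin-R cells it was at 44.0, 32.6 and 34.9 CPM, and in RSL3-R cells at 36.4, 36.5 and 29.8 CPM, so that every resistant library was above every vehicle library while the resistant groups overlapped. It rose 3.58-fold in erastin-R cells (log2 fold change 1.84, SE 0.126, adjusted p = 5.5e-08) and 3.30-fold in RSL3-R cells (1.72, SE 0.126, adjusted p = 1.0e-07). Between the resistant groups the log2 difference was -0.12 with a 95% interval from -0.36 to 0.13, and the sign turned without erastin-R replicate 1, the highest library (0.018), or without RSL3-R replicate 3, the lowest of its group (0.0098). Without erastin-R replicate 1 the log2 change of CCND2 against vehicle was 1.70 in erastin-R cells. In GENCODE, 13.8% of its exon bases also belong to AC008012.1 on the same strand, which had 0 counts in every library. How reads in bases shared between genes were assigned was not tested.

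CCND3 (ENSG00000112576, chr6:41934933-42050357, minus strand), for cyclin D3, was at 205, 209 and 196 CPM in vehicle cells. It was at 151, 174 and 181 CPM in erastin-R and at 99.7, 107 and 106 CPM in RSL3-R cells. No group overlapped another, and RSL3-R was lowest. The fall was 1.21-fold in erastin-R cells (log2 fold change -0.27, SE 0.070, adjusted p = 0.0052) and 1.95-fold in RSL3-R cells (-0.96, SE 0.072, adjusted p = 1.2e-07), and the resistant groups differed from each other (-0.69, adjusted p = 3.9e-06). CCND1 and CCND3 thus stood in opposite orders: erastin-R was the lower of the resistant groups for CCND1, and RSL3-R for CCND3.

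Per kilobase of exon, the summed D cyclin level was 135.7 ± 2.47 CPM (SD, n = 3) in vehicle, 82.0 ± 3.20 in the erastin-R and 100.2 ± 0.693 in the RSL3-R group. CCND1 made up 73.1% ± 0.532 of that sum in vehicle, 58.2% ± 0.890 in the erastin-R and 77.3% ± 0.561 in the RSL3-R group (SD, n = 3). The share of CCND3 was 25.8% in vehicle, 35.4% in the erastin-R and 17.9% in the RSL3-R group. CCND2 went from 1.07% ± 0.029 of the D cyclin sum in vehicle to 6.36% ± 1.28 in the erastin-R and 4.77% ± 0.506 in the RSL3-R group, and it remained the least abundant D cyclin in each group.

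**Figure D2:**
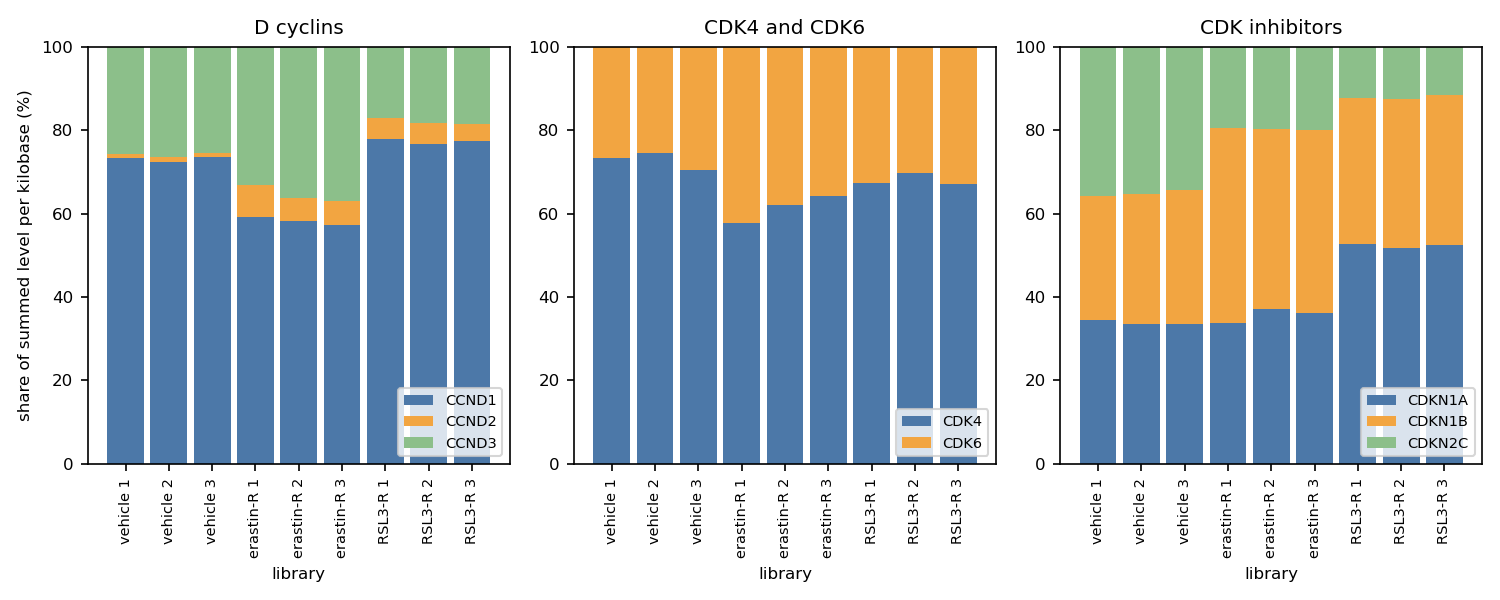
Share of each gene in the summed level per kilobase of its family (percent, vertical axis), 1 bar per library (horizontal axis), for the D cyclins, for CDK4 with CDK6 and for the 3 CDK inhibitors. The share of CCND1 is 57.3% to 59.1% in erastin-R libraries and above 72% in all others, and CDKN2C shrinks from above 34% of the inhibitor sum in vehicle to 19.5% to 19.9% in erastin-R and 11.5% to 12.5% in RSL3-R libraries.

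CCNE1 (ENSG00000105173, chr19:29811898-29824308, plus strand), for cyclin E1, was the least abundant member by CPM. It was at 8.23, 8.77 and 9.68 CPM in vehicle, at 6.67, 4.26 and 4.56 CPM in erastin-R and at 3.67, 3.92 and 3.62 CPM in RSL3-R cells. Every resistant library was below every vehicle library, and erastin-R replicate 1 was the highest resistant library. The fall was 1.72-fold in erastin-R cells (log2 fold change -0.78, SE 0.169, adjusted p = 0.0015; -1.01 without replicate 1) and 2.38-fold in RSL3-R cells (-1.25, SE 0.176, adjusted p = 5.1e-05). RSL3-R was lower than erastin-R with a marginal adjusted p of 0.049 (-0.47, SE 0.185), which was lost in 12 of 15 alternative fits and was 0.27 (-0.24) without erastin-R replicate 1. The related cyclin E2 gene, CCNE2, fell in both groups as well, from 20.4 CPM in vehicle to 4.75 in the erastin-R (-2.09, adjusted p = 1.2e-07) and 4.61 in the RSL3-R group (-2.14, adjusted p = 1.0e-07).

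CDK2 (ENSG00000123374, chr12:55966769-55972784, plus strand), the kinase of cyclin E and cyclin A, was at 116, 103 and 108 CPM in vehicle cells. It was at 105, 82.7 and 93.5 CPM in erastin-R and at 67.5, 73.3 and 69.8 CPM in RSL3-R cells. The RSL3-R libraries were below all others, while erastin-R overlapped vehicle through its replicate 1. CDK2 was 1.55-fold lower in RSL3-R cells (log2 fold change -0.63, SE 0.084, adjusted p = 2.9e-05) and lower than in erastin-R cells too (-0.42, adjusted p = 9.7e-04). The difference of erastin-R from vehicle was -0.21 (SE 0.083, adjusted p = 0.042) and was not called in 8 of 15 alternative fits. These were the fit of the 2 groups alone (adjusted p = 0.081), the fits without vehicle replicate 1 (0.15) or 3 (0.074), erastin-R replicate 2 (0.19) or 3 (0.086), and any of the RSL3-R replicates (0.053 to 0.060). Without erastin-R replicate 1 it was -0.31 (adjusted p = 1.4e-04). On the opposite strand, AC025162.1 (0 counts) covers 14.5% of the exon bases of CDK2 and PMEL (29 to 43 counts) covers 2.3%.

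CDK4 (ENSG00000135446, chr12:57747727-57756013, minus strand), a partner of D cyclins, was at 83.5, 87.4 and 79.9 CPM in vehicle cells. It was at 54.7, 64.4 and 64.6 CPM in erastin-R and at 74.9, 74.3 and 71.4 CPM in RSL3-R cells, and the 3 groups did not overlap. CDK4 was 1.36-fold lower in erastin-R cells (log2 fold change -0.45, SE 0.074, adjusted p = 1.8e-04), and RSL3-R cells had more of it than erastin-R cells (0.26, SE 0.075, adjusted p = 0.0098). In RSL3-R against vehicle the log2 difference was -0.19 with an adjusted p of 0.052. It passed the threshold in the fit of the 2 groups alone (0.0065) and without vehicle replicate 3 (0.049) or erastin-R replicate 1 (0.0035), 2 (0.050) or 3 (0.048). The CDK4 values are uncertain, since 43.2% of its exon bases lie under TSPAN31 on the opposite strand (238 to 376 counts) and the sources used here do not say whether counting used strand. TSPAN31 was at 17.1 CPM in vehicle, 17.97 in the erastin-R and 21.1 in the RSL3-R group.

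CDK6 (ENSG00000105810, chr7:92604921-92836594, minus strand), the other partner of D cyclins, was at 117, 116 and 129 CPM in vehicle cells. It was at 155, 153 and 139 CPM in erastin-R and at 140, 125 and 136 CPM in RSL3-R cells. All erastin-R libraries were above all vehicle libraries, and RSL3-R overlapped both. It rose 1.24-fold in erastin-R cells (log2 fold change 0.31, SE 0.069, adjusted p = 0.0018). For RSL3-R against vehicle the log2 difference was 0.15 (adjusted p = 0.092), which passed without erastin-R replicate 1 (0.021), with the 2 groups alone (0.016) and after quantile normalization (0.028). RSL3-R differed from erastin-R by -0.16 (adjusted p = 0.069), which passed without erastin-R replicate 3 (0.033). Per kilobase, CDK4 made up 72.8% ± 2.003 of the sum of CDK4 and CDK6 in vehicle, 61.3% ± 3.32 in the erastin-R and 68.1% ± 1.43 in the RSL3-R group (SD, n = 3). These shares rest on exon lengths of 3168 bases for CDK4 and 12260 for CDK6, and on the uncertain CDK4 counts. By CPM not divided by length, CDK6 was above CDK4 in every library.

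**Figure D3:**
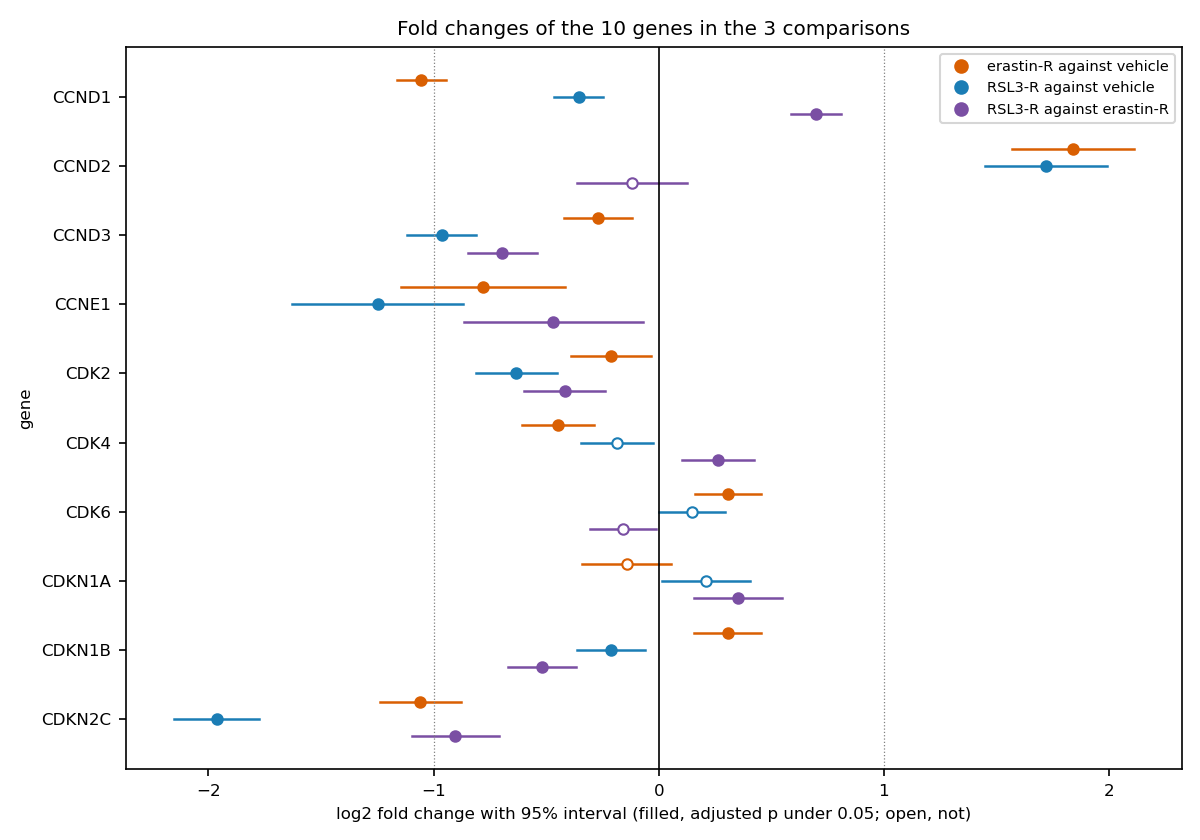
Log2 fold change (horizontal axis) of each gene (vertical axis) in erastin-R against vehicle, RSL3-R against vehicle and RSL3-R against erastin-R cells, with 95% intervals. Filled points passed an adjusted p of 0.05, open points did not, and dotted lines mark a 2-fold change. CCND2 is the farthest to the right (1.84 and 1.72) and CDKN2C the farthest to the left (-1.96 in RSL3-R).

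CDKN2C (ENSG00000123080, chr1:50960745-50974633, plus strand), for the INK4 inhibitor p18, fell more in RSL3-R than in erastin-R cells. It was at 91.7, 91.2 and 83.8 CPM in vehicle, at 37.3, 45.6 and 45.2 CPM in erastin-R and at 22.2, 24.1 and 22.1 CPM in RSL3-R cells, without overlap between groups. The fall was 2.08-fold in erastin-R cells (log2 fold change -1.06, SE 0.084, adjusted p = 2.1e-07) and 3.90-fold in RSL3-R cells (-1.96, SE 0.088, adjusted p = 7.9e-10). The difference between the resistant groups was -0.90 (SE 0.089, adjusted p = 2.7e-06). No other gene shared its exon bases, and all 3 calls held in each of the 15 alternative fits.

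CDKN1A (ENSG00000124762, chr6:36676460-36687339, plus strand), for p21, was at 81.3, 79.5 and 75.1 CPM in vehicle cells. It was at 59.1, 79.3 and 75.5 CPM in erastin-R and at 88.0, 92.2 and 92.8 CPM in RSL3-R cells. Erastin-R overlapped vehicle, with replicate 1 below all other libraries, and the RSL3-R libraries were above all others. Neither difference from vehicle passed: the log2 fold change was -0.14 (95% interval -0.34 to 0.06, adjusted p = 0.21) in erastin-R and 0.21 (0.01 to 0.41, adjusted p = 0.072) in RSL3-R cells. The former was -0.024 (adjusted p = 0.74) without erastin-R replicate 1. The latter passed without erastin-R replicate 1 (0.21, adjusted p = 0.0013), with the 2 groups alone (0.0012) and after quantile normalization (0.029). RSL3-R cells had 1.28-fold more CDKN1A than erastin-R cells (0.35, SE 0.092, adjusted p = 0.0058), and 0.23 on the log2 scale without that library (adjusted p = 0.0014).

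CDKN1B (ENSG00000111276, chr12:12715058-12722371, plus strand), for p27, was at 64.3, 68.4 and 66.2 CPM in vehicle cells. It was at 75.6, 85.4 and 84.7 CPM in erastin-R and at 54.1, 58.6 and 59.0 CPM in RSL3-R cells, so that erastin-R was above and RSL3-R below vehicle in every library. It rose 1.24-fold in erastin-R cells (log2 fold change 0.31, SE 0.070, adjusted p = 0.0021) and fell 1.16-fold in RSL3-R cells (-0.21, SE 0.070, adjusted p = 0.023). The fall did not pass without vehicle replicate 2 (0.085), RSL3-R replicate 1 (0.20) or RSL3-R replicate 3 (0.082), or after quantile normalization (0.062). The resistant groups differed by -0.52 (SE 0.070, adjusted p = 4.2e-05).

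Per kilobase, the 3 inhibitors summed to 76.2 ± 2.39 CPM in vehicle, 65.4 ± 6.87 in the erastin-R and 57.1 ± 1.98 in the RSL3-R group (SD, n = 3). In vehicle cells they were close to each other, at 33.9% (CDKN1A), 31.0% (CDKN1B) and 35.2% (CDKN2C) of that sum. CDKN1B led in erastin-R cells with 44.7% ± 1.83 and CDKN1A in RSL3-R cells with 52.3% ± 0.443, while CDKN2C fell to 19.7% ± 0.182 and 12.0% ± 0.517 (SD, n = 3).

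Among all 10 genes, CCND1 had the highest level per kilobase in every group, at 99.2 ± 1.73 CPM in vehicle, 47.7 ± 1.18 in the erastin-R and 77.5 ± 0.568 in the RSL3-R group (SD, n = 3). In vehicle cells CCND3 followed at 35.1, and CDK2 (27.9), CDKN2C (26.8), CDK4 (26.4) and CDKN1A (25.8) came next, each overlapping its neighbour in this order over the 3 libraries. CDKN1B (23.6), CDK6 (9.84), CCNE1 (3.49) and CCND2 (1.45) followed without overlap. In erastin-R cells the second place was taken by CDKN1B (29.2) and CCND3 (29.1), whose libraries overlapped, and CCND2 (5.19) stood above CCNE1 (2.03). In RSL3-R cells CDKN1A (29.8) was second and CDKN2C (6.87) eighth. The place of CDK4 in these orders rests on its uncertain counts.

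CDKN2A and CDKN2B, which encode the INK4 inhibitors p16 and p15, had 0 counts in all 9 libraries, which allows up to 3 counts in each. The remaining INK4 gene, CDKN2D, was at 45.7 CPM in vehicle and 41.5 in erastin-R cells (log2 fold change -0.14, adjusted p = 0.37) and fell to 20.4 CPM in RSL3-R cells (-1.16, adjusted p = 7.3e-06). CDKN1C, for p57, rose from 6.38 to 24.4 CPM in erastin-R cells (1.93, adjusted p = 3.2e-06) and was at 9.19 CPM in RSL3-R cells (0.52, adjusted p = 0.060), and the resistant groups differed (-1.41, adjusted p = 5.4e-05). The erastin-R libraries were at 15.4, 28.2 and 29.5 CPM for CDKN1C, with replicate 1 lowest.

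Of 13 genes of the RB and E2F family, 8 fell and 2 rose in erastin-R cells and 7 fell and 4 rose in RSL3-R cells, with medians of -0.35 and -0.20; of all genes tested, 26.8% fell and 27.1% rose in erastin-R and 24.9% fell and 23.8% rose in RSL3-R cells. E2F2, an activator of S-phase genes, fell by 1.93 on the log2 scale in erastin-R and by 2.32 in RSL3-R cells (adjusted p = 1.1e-06 and 3.0e-07). E2F1, of the same kind, fell by 0.38 and 1.12 (adjusted p = 0.0060 and 1.2e-06). E2F8, a repressor that is itself made in S phase, fell by 1.22 and 1.77 (adjusted p = 1.5e-06 and 6.6e-08). RBL1, for the RB relative p107, fell by 1.62 and 1.03 (adjusted p = 5.9e-09 and 2.7e-07). RB1 itself fell by 0.62 and 0.60, and RBL2, for p130, the relative that is bound to E2F in resting cells, rose by 0.61 and 0.67.

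**Figure D4:**
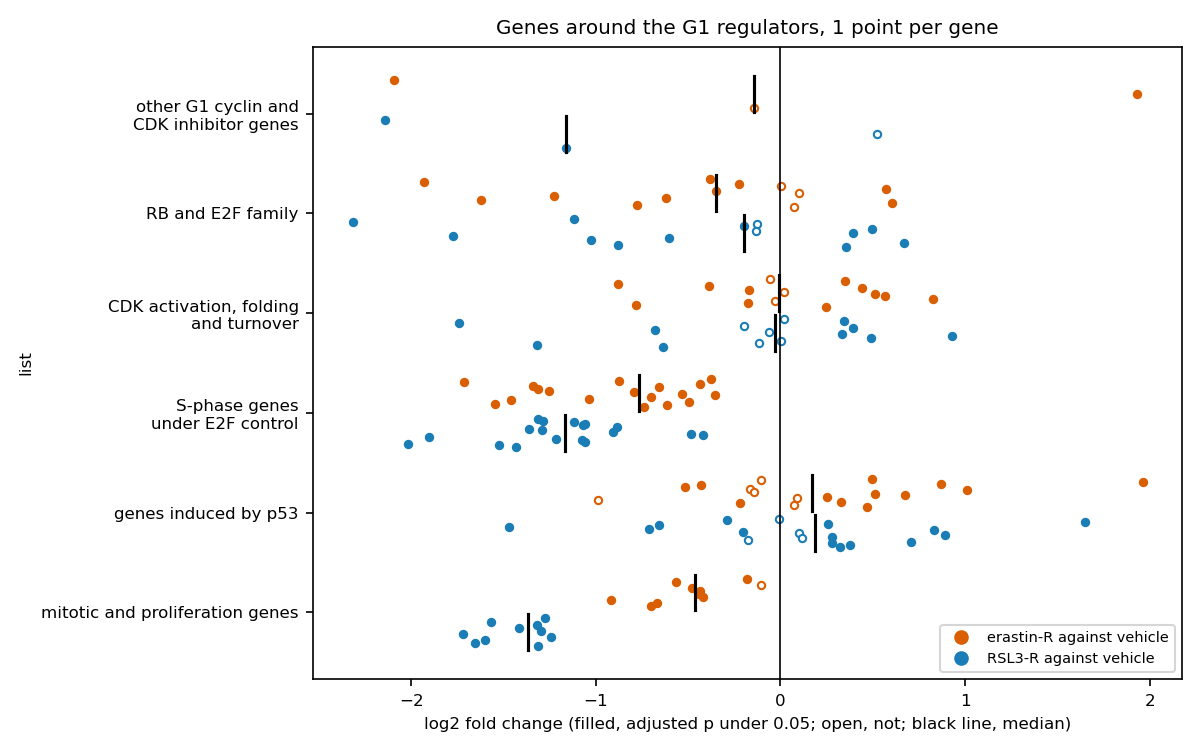
Log2 fold change against vehicle (horizontal axis) of the tested genes of 6 lists (vertical axis), 1 point per gene, filled where the adjusted p was under 0.05, with the median as a black line. All S-phase points lie left of 0 in both resistant groups, with medians of -0.77 and -1.17, and the mitotic points lie farther left in RSL3-R (median -1.37) than in erastin-R cells (-0.46).

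Genes switched on by E2F for DNA replication fell throughout: 18 of 18 were lower in the erastin-R and 18 of 18 in the RSL3-R group, with medians of -0.77 and -1.17. Against vehicle, 26.8% of all genes tested were lower for the erastin-R group, and 24.9% were lower for the RSL3-R group. RRM2, a subunit of ribonucleotide reductase, fell by 1.54 and 2.02 (adjusted p = 9.4e-10 and 9.1e-11). ORC1, of the origin recognition complex, fell by 0.70 and 1.90 (adjusted p = 5.4e-05 and 1.1e-08), and CDC6, which loads the replicative helicase, by 1.71 and 1.12 (adjusted p = 7.0e-09 and 2.5e-07). TK1, for thymidine kinase, fell by 0.61 and 1.53 (adjusted p = 1.1e-04 and 3.3e-08). Of 10 mitotic and proliferation genes, 9 fell in the erastin-R (all but BUB1, at -0.11 with adjusted p = 0.13) and 10 in the RSL3-R group, and all 10 were lower in RSL3-R than in erastin-R cells. Between the resistant groups, 26.9% of all genes tested were lower in RSL3-R cells. MKI67, for the proliferation marker Ki-67, was at 743 CPM in vehicle, 394 in the erastin-R and 245 in the RSL3-R group, CDC20 at 206, 152 and 62.7 CPM, PLK1 at 140, 87.9 and 44.4 CPM and BIRC5 at 153, 104 and 51.8 CPM. The erastin-R libraries were at 523, 338 and 321 CPM for MKI67, with replicate 1 highest. In bulk RNA, fewer cells in a phase and less RNA per cell cannot be told apart, for these lists and for the 10 genes.

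Of 14 genes for CDK activation, folding and turnover of G1 regulators, 6 rose and 5 fell in erastin-R cells and 5 rose and 4 fell in RSL3-R cells, with medians of -0.0051 and -0.030, where 54.0% and 48.7% of all genes were called in either direction. CDC25A, the phosphatase that activates CDK2, fell by 0.88 and 1.74 on the log2 scale (adjusted p = 3.5e-06 and 9.3e-09). SKP2, the F-box protein that marks p27 for breakdown, fell by 0.78 and 1.32 (adjusted p = 5.8e-06 and 5.8e-08), while FBXW7, which does so for cyclin E, rose by 0.83 and 0.49 (adjusted p = 1.1e-05 and 0.0011). FBXO4 rose by 0.57 and 0.93 (adjusted p = 0.024 and 0.0011).

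CDKN1A is a textbook target of p53, which is mutant in MDA-MB-231 cells. Of 18 other p53-induced genes that passed the filter, 9 rose and 3 fell in erastin-R cells and 9 rose and 5 fell in RSL3-R cells, with medians of 0.17 and 0.19. The shares of all genes that rose were 27.1% and 23.8%, and those that fell 26.8% and 24.9%. BBC3, for the apoptosis inducer PUMA, rose from 7.61 CPM to 29.7 in the erastin-R and 23.9 in the RSL3-R group (log2 fold change 1.96 and 1.65, adjusted p = 1.6e-07 and 9.5e-07), and GADD45A, a stress-induced growth inhibitor, from 50.9 to 103 and 90.5 CPM (1.01 and 0.83, adjusted p = 6.8e-08 and 4.7e-07). PLK3 rose by 0.68 and 0.89 (adjusted p = 8.2e-04 and 9.9e-05). FAS, for a death receptor, fell by 0.52 and 1.47 (adjusted p = 0.029 and 3.8e-05) and was at most at 5.02 CPM in the group means.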

How the data were processed

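Poly(A) RNA of 9 libraries had been prepared with a NEBNext Ultra kit and sequenced on an Illumina instrument. The authors deposited raw counts per gene, from uniquely mapped exonic reads, and FPKM values (called RPKM in the methods) made from them. The submitters' processing notes name HISAT2 2.0.5 and featureCounts 1.5.0-p3; the strand setting is not given in the sources used here. Counts were used for all tests and FPKM as an alternative for levels. In R 4.3.3, edgeR 4.0.16 (TMM, filterByExpr, quasi-likelihood test, 9 libraries in 1 model) tested 16188 genes with Benjamini-Hochberg adjustment; SE was taken from the F statistic. Alternatives were a minimum 2-fold change, RLE factors, quantile normalization with limma 3.58.1, DESeq2 1.42.0, no filter, the 2 groups alone, a replicate block and each library left out. Levels between genes were CPM per kilobase of the deposited gene length. The fits were tested on simulated data. Coordinates and exon overlaps came from GENCODE 29, which holds 58724 of the 58735 genes. The members, lists and tests were chosen with earlier results of these data known. All 10 members are named, with up to 4 genes per list by largest absolute log2 fold change against vehicle among genes past the threshold; RB1, RBL2, BUB1 and TSPAN31 were named after their values were seen.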

Additional observations from a re-analysis of the deposited data

Results flagged for a closer look

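CDKN1B is listed because the resistant groups lay on opposite sides of vehicle, each called against it, and the test of the difference between them passed. The fall in RSL3-R cells against vehicle lost its call in 4 of 15 alternative fits. CDKN1A also lay on opposite sides (-0.14 and 0.21) with a called difference between the resistant groups, but neither of its differences from vehicle passed. Its erastin-R side rested on replicate 1, without which the log2 difference from vehicle was -0.024 (edgeR, adjusted p = 0.74). For CDKN1B, the log2 difference of RSL3-R from erastin-R cells was -0.517 (edgeR, adjusted p = 4.2e-05), and it held in direction and call in each of the 15 alternative fits. All 3 erastin-R libraries were above and all 3 RSL3-R libraries below the vehicle libraries. Its exons share no bases with another annotated gene.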

How the results depend on the processing

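Of 30 differences (10 genes in 3 comparisons), 22 kept their direction and side of the threshold in each of 15 alternative fits; of 450 values, 24 lost a call, 12 gained one and 2 turned sign, all for results given above. With a minimum 2-fold change the members called were 3 for erastin-R, 3 for RSL3-R and 0 between them, in place of 9, 7 and 8. Leaving out each library in turn gave 8 to 9, 6 to 10 and 7 to 9 members. Between RSL3-R and erastin-R cells it gave -0.21 to 0.018 for CCND2 and -0.20 to 0.16 for CCNE2, neither called. The replicate numbers did not pair the libraries: deviations from the group means correlated with a mean r of -0.0049 for same-numbered libraries and 0.0026 for others. With the replicate number as a block, 9, 7 and 7 members were called, and CCNE1 between the resistant groups was the only member call to change (adjusted p = 0.072). With 3 libraries a group, log2 differences of about 0.2 lay near the threshold; CCNE1 had 57 to 157 counts per library.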

Other observations

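Over the 9 libraries, the gene whose log2 CPM followed each regulator most closely, among 9774 genes with a mean of at least 10 CPM, was described by Pearson's r, without a test, since the libraries fall into 3 groups that set most of it. For CDKN2C the closest were ESPL1, for the separase that splits sister chromatids (0.997), DPP3 (0.997) and CDC25A (0.995). For CCNE1 they were NUP35 (0.994), the kinetochore gene CENPF (0.994) and the spindle checkpoint gene BUB1B (0.993). CCND3 was followed by TONSL, a gene for the repair of replication forks (0.998), TRIM14 (0.997) and TOMM40 (0.996). CDK2 was followed by HMGB2 (0.982), HNRNPUL1 (0.978) and HDGFL2 (0.974), and CCND1 by GALNT10 (0.999). CCND2, which rose in both resistant groups, was closest to ANKRD20A5P (0.996) and CLMN (0.996). CDKN1B was closest to CPSF4 (0.989), CDK6 to ZNF451 (0.986), CDK4 to TSPOAP1 (0.995) and CDKN1A, the least closely followed, to TMEM132A (0.974). Between members, CDKN2C and CCND3 had an r of 0.954 and CDK4 and CDK6 one of -0.907.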
